A study of Homo sapiens with 12 samples.

Results

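Interferon-stimulated genes are the antiviral genes that cells switch on when interferon reaches them. A fixed list of 41 of them was read from 12 one-colour Agilent expression arrays of lung adenocarcinoma cell lines, through the probes that carry the gene's symbol in the array files. The list has 54 probes on the array. Of the 41 genes, 35 passed the background rule, with a probe well above it on 3 or more arrays, and were tested together with all 24857 genes that met this rule. The other 6 (IFI44, IFI44L, RSAD2, XAF1, EPSTI1 and TRIM22) were below background on at least 10 arrays and are described by their signals. Probes were matched to the list by gene name and by no measured value, whereas the background rule used the signals. The list itself was chosen with earlier results of these data known.

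The cells were A549, PC14 and PC14CDDP, a cisplatin-resistant derivative of PC14. DharmaFECT reagent carried 4 oligonucleotides into each line, at 25 nM, and the stated treatment includes no interferon. PremiR-197 raises miR-197 by supplying its precursor, with AllStar-NC as its control. LNA-miR-197 inhibits the miRNA through a complementary strand of locked nucleic acid (LNA), with LNA-miR-NC as the matching control. Every line and transfection had 1 array, so a difference between transfections is a difference over 3 lines and a difference between lines is one over 4 arrays of cultures of the same line. None of the 12 arrays holds untransfected cells, so the level before any oligonucleotide is not known here.

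Levels are given as log2 of the processed signal minus log2 of that array's 75th percentile, so that a gene at 0 is brighter than 75% of the probes. The share of probes well above background per array was 55.8% to 63.1%, and 0 spots were saturated. Slide 1 held the A549 arrays and slide 2 held the other lines in separate rows, so slide and line cannot be told apart for A549. Slide column and transfection cannot be told apart either. The epithelial keratins KRT18 and KRT8 were measured on every array, at 7.17 to 8.45 and 3.04 to 5.26. CDH1 was well above background on 6 arrays and EPCAM on 7, none of them in PC14CDDP. NKX2-1, a lung lineage factor, was below background in A549. KRT19 was at -3.94 to -2.07 in PC14CDDP and at -1.01 to -0.15 in PC14. At an adjusted p under 0.05 by limma, 3 of the 5 epithelial markers were lower in PC14CDDP than in PC14 and 0 higher. Of all genes, 23.3% were lower and 25.1% higher. KRT18, the brightest, makes up most of the epithelial sums that follow. Summed over their genes on the linear scale, the epithelial markers lay at 298 to 412 in A549, 154 to 224 in PC14 and 159 to 228 in PC14CDDP. The leukocyte markers (4 of 5 above background) lay at 1.78 to 2.11, 0.695 to 0.817 and 0.175 to 0.521, with CD14 at 0.67 to 0.97 on the log2 scale in A549. The endothelial markers (3 of 4) lay at 0.155 to 0.219, 0.407 to 0.646 and 0.144 to 0.196, and 1 of 6 fibroblast markers was above background often enough to be tested. The part of these markers in the results was not tested. Because the RNA came from whole cultures, a smaller share of responding cells and less RNA per cell cannot be told apart.

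Type I and type III interferons act through the kinases JAK1 and TYK2 on a complex that holds STAT2 and IRF9 and binds the interferon-stimulated response element, or ISRE, in promoters. Interferon gamma acts on promoters through the gamma-activated site, or GAS. The products bind viral RNA (IFIT and OAS families), block entry at membranes (IFITM family), trap virus particles (BST2) or attach the ubiquitin-like protein ISG15 to other proteins (UBE2L6, HERC5), and USP18 takes ISG15 off again. Transfected nucleic acids can themselves start this response through RNA and DNA sensors.

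The promoters below show what most of the listed genes share and the array rule did not use. The stretches are 30 bases long, are written from 5′ to 3′ on the strand of the gene, come from RefSeq on GRCh38.p14, and carry the ISRE core in capitals. They were picked from the members that hold the core and whose values the results turn on, and they lie at chr10:89392503-89392532 (+ strand, IFIT1), chr10:89327831-89327860 (+, IFIT3), chr10:89414513-89414542 (+, IFIT5), chr1:1013377-1013406 (+, ISG15), chr11:320885-320914 (-, IFITM3), chr14:94110624-94110653 (+, IFI27), chr12:112938321-112938350 (+, OAS3), chr7:140062952-140062981 (-, PARP12), chr7:93118096-93118125 (-, SAMD9) and chr1:89065316-89065345 (-, GBP1). The results also turn on OAS1, SAMD9L and IRF9, which hold no ISRE core in the search below and are not shown.
IFIT1: ttagTTTCACTTTCcccTTTCGGTTTCcct
IFIT3: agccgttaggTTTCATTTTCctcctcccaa
IFIT5: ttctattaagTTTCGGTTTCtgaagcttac
ISG15: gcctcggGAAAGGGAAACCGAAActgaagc
IFITM3: agGAAAAGGAAActgttgaGAAACCGAAAc
IFI27: gcagTTTCGGTTTCctgGAAAATGAAAcct
OAS3: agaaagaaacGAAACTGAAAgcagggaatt
PARP12: tttcgccggcccggggccgcTTTCGGTTTC
SAMD9: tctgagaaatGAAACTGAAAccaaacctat
GBP1: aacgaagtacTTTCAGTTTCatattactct

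The core was searched as GAAANNGAAA, or TTTCNNTTTC on the other strand, in the window of 250 bases before each start listed for a gene. It was found in 23 of the 34 members with a promoter in the RefSeq table (67.6%) and in 3.71% of all 27305 genes of that table. The GAS letters TTCNNNGAA, which read the same on both strands, were found in 11 members (32.4%) and in 8.09% of all genes. A gene counted when any of its windows had a match, and 24 of the 34 members and 22114 of the 27305 genes had 1 window. Of all 35116 windows, 3.02% held the core and 6.57% the GAS letters. IFI35, OAS1, SP110, IRF1 and IRF9 held the GAS letters and no ISRE core. XAF1, HERC6, CMPK2, SAMD9L, DTX3L and UBE2L6 held neither. Matches of the motifs may overlap, and a match describes the letters and not a bound factor. IFIT2, IFITM2, MX2, OAS2, OASL, USP18 and TRIM22 have no promoter in the table.

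PremiR-197 raises and LNA-miR-197 inhibits the mature miRNA shown here, with its seed, bases 2 to 8, in capitals. It lies at chr1:109598940-109598961 on the + strand of GRCh38.p14.
hsa-miR-197-3p: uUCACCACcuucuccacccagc

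Among the genes above background, the order of the lines differed from gene to gene. The membrane proteins IFITM2 and IFITM3, which block virus entry, were among the bright members in every line and were lower in A549 than in PC14 and PC14CDDP. OAS1, which makes the oligoadenylate that activates RNase L, was measured in A549 and below background in the other lines. SAMD9L, an antiviral cytoplasmic protein, was brightest in PC14CDDP and below background in PC14.

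**Figure D1:**
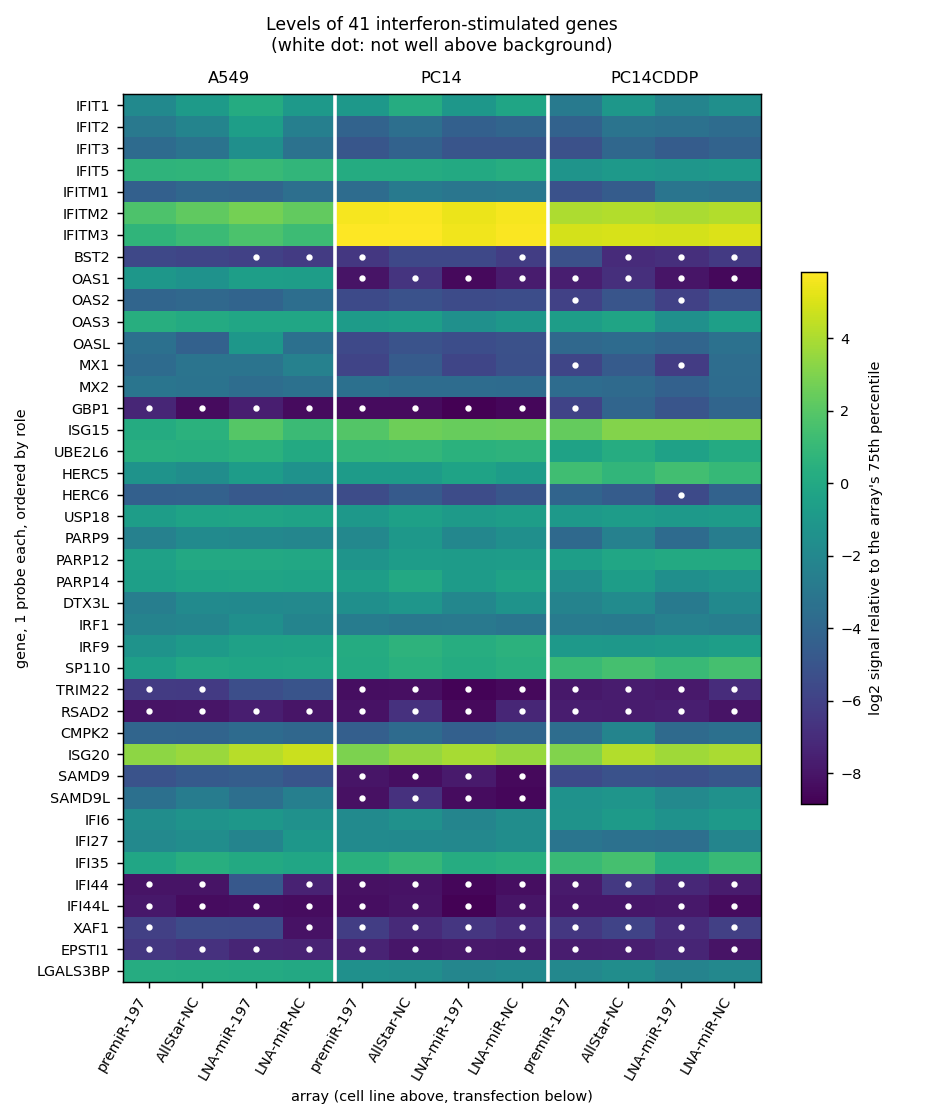
Log2 level of each of the 41 genes (rows, by role) on each of the 12 arrays (columns, by line and transfection), scaled to the array's 75th percentile, with a white dot where the probe was not well above background. OAS1 is well above background on the 4 A549 arrays and on none of PC14 or PC14CDDP, and IFITM3 lies at 5.52 to 5.84 in PC14 against 0.76 to 1.68 in A549.

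Of the 6 members that were not tested, IFI44L, RSAD2 and EPSTI1 were below background on all 12 arrays. RSAD2, also called viperin, is an antiviral enzyme that is almost silent in unstimulated cells. IFI44 was well above background only on the LNA-miR-197 array of A549, at -4.80, against -8.07, -8.05 and -7.43 on the premiR-197, AllStar-NC and LNA-miR-NC arrays of that line. XAF1, a promoter of apoptosis, passed on the AllStar-NC and LNA-miR-197 arrays of A549, at -5.49 and -5.52. TRIM22, an antiviral ubiquitin ligase, passed on the LNA-miR-197 and LNA-miR-NC arrays of A549, at -5.32 and -5.01. Where any of these genes were detected at all, it was in A549.

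PremiR-197 was compared with AllStar-NC to ask what a surplus of miR-197 does to these transcripts. Most interferon-stimulated genes had lower mean levels after premiR-197, with the means of IFIT1, PARP9 and MX1 furthest below 0. The difference was below 0 in 29 of the 35 members, and its median over the members was -0.39 on the log2 scale, against 0.02 over all genes tested. None of the single differences passed the test. limma called 0 of the 35 members lower and 0 higher at an adjusted p under 0.05, where 0.137% of all genes were called lower and 0.0805% higher, and 13 members (12 lower, 1 higher) had an unadjusted p under 0.05, as did 16.3% of all genes.

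The direction was the next question. In each of the 3 lines the difference was below 0 for 19 of 35 members, against 19.5% of all genes, and above 0 in each line for 2 (HERC5 and MX2), against 24.7% of all genes. The 19 were DTX3L, IFI35, IFI6, IFIT1, IFIT2, IFIT3, IFITM1, IFITM2, IFITM3, ISG15, ISG20, MX1, OAS2, PARP12, PARP14, PARP9, SAMD9L, SP110 and USP18, of which SAMD9L was below background in PC14. Line by line, the members had medians of -0.36 (A549), -0.50 (PC14) and -0.45 (PC14CDDP), with 0.03, 0.02 and 0.02 over all genes. The AllStar-NC array of each line serves as the control for every member at once, so the members are not independent observations of this shift.

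IFIT1 encodes a protein that binds foreign RNA. It lay at -1.87, -1.0 and -2.84 after premiR-197 and at -0.87, 0.23 and -1.06 after AllStar-NC in A549, PC14 and PC14CDDP, in that order, which is kept below. Each line was lower after premiR-197, although the groups overlapped because the lines differ in level. The mean difference was -1.34 ± 0.44 (SE, n = 3 lines), 2.52-fold lower with an adjusted p of 0.205 by limma. The genes of its family on chromosome 10 had smaller differences.

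IFIT2 was at -2.93, -4.17 and -4.24 after premiR-197 and at -2.23, -3.51 and -3.20 after AllStar-NC. IFIT3 was at -3.72, -4.92 and -5.23 after premiR-197 and at -3.28, -4.21 and -3.94 after AllStar-NC. Both were lower in every line, with mean differences of -0.80 ± 0.44 (adjusted p = 0.413) and -0.81 ± 0.47 (adjusted p = 0.442). IFIT5, the remaining member of the family, differed by -0.12. The whole family thus lay below 0 (4 of 4), with no member past the test.

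PARP9, which works in a complex with the ubiquitin ligase DTX3L, was at -2.41, -1.98 and -3.82 after premiR-197 and at -1.79, -1.03 and -2.42 after AllStar-NC. It was lower in each line, and the lines overlapped between the groups. The mean difference was -0.99 ± 0.23, 1.98-fold lower with an adjusted p of 0.110, and a further probe of the gene gave -1.17. PARP12, a mono-ADP-ribosyltransferase, differed by nearly the same amount in each line, at -0.48, -0.50 and -0.45. Its adjusted p of 0.0916 was the lowest among the members. PARP14 (-0.61, adjusted p = 0.143) and DTX3L (-0.56, adjusted p = 0.287) completed a group in which 4 of 4 members lay below 0.

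MX1, a GTPase that blocks the replication of RNA viruses, was at -3.70, -5.86 and -5.76 after premiR-197 and at -3.22, -4.61 and -4.63 after AllStar-NC, with the PC14CDDP value after premiR-197 below background. Every line was lower, and the mean difference was -0.96 ± 0.41 (adjusted p = 0.301). ISG20, an exonuclease that degrades viral RNA, was at 3.32, 2.95 and 3.07 after premiR-197 and at 3.64, 3.5 and 4.12 after AllStar-NC, without overlap. Its mean difference was -0.64 ± 0.22 (adjusted p = 0.221). ISG15 differed by -0.59 ± 0.28 (adjusted p = 0.350).

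**Figure D2:**
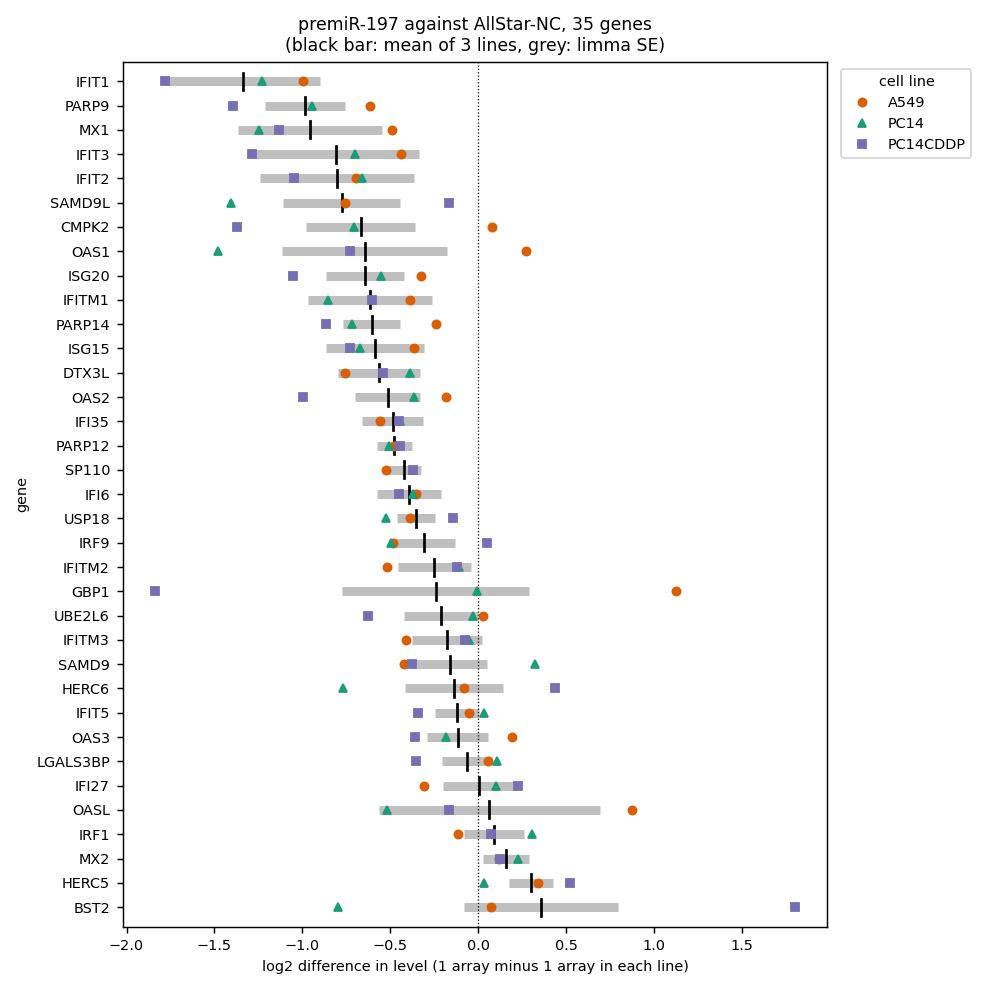
Difference in log2 level between premiR-197 and AllStar-NC for the 35 members tested, as 1 point for each of the 3 lines, with a black bar for the mean and a grey line for its SE from limma. The means of 29 members lie below 0, from -1.34 for IFIT1 upwards, and the points of GBP1 and BST2, which were below background on many arrays, spread widest.

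Members at least 2-fold lower after premiR-197 were counted in each line without a test. None met this in A549 (0 of 35, against 1.94% of all genes). In PC14 there were 4 (2.18% of all genes), IFIT1, MX1, OAS1 and SAMD9L, the last 2 of which were below background on every PC14 array. In PC14CDDP there were 8 (4.3% of all genes), CMPK2, GBP1, IFIT1, IFIT2, IFIT3, ISG20, MX1 and PARP9. At least 2-fold higher were GBP1 in A549 (1 member, 2.16% of all genes), which was below background there, none in PC14 (2.4% of all genes) and BST2 in PC14CDDP (1 member, 3.64% of all genes), which was below background after AllStar-NC. GBP1, a GTPase of the defence against pathogens inside the cell, and MX1 were below background in PC14CDDP after premiR-197.

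LNA-miR-197 was compared with LNA-miR-NC to ask what blocking the miRNA does. In the mean over the lines, IFI27 was lower and passed the test, and no other member passed. IFIT1, IFIT2, IFIT3 and OASL had high values on the LNA-miR-197 array of A549. limma called 1 of 35 members lower, against 3.86% of all genes, and 0 higher, against 3.9% of all genes, and 7 members had an unadjusted p under 0.05, a smaller share than the 27.3% of all genes. The difference was below 0 in 25 of the 35 members, and its median over the members was -0.16, against -0.01 over all genes.

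IFI27 encodes a small mitochondrial protein of the interferon response, and its probe lies at chr14:94582967-94583026 of hg19. It was at -2.23, -1.98 and -3.49 after LNA-miR-197 and at -1.09, -1.66 and -2.17 after LNA-miR-NC. Each line was lower after LNA-miR-197, least in PC14, and the groups overlapped. The mean difference was -0.93 ± 0.21, a 1.90-fold decrease with an adjusted p of 0.0374. Leaving out any line ended the call (adjusted p 0.151 to 0.271). The LNA-miR-NC array was the highest of its line in every line, while the AllStar-NC arrays stood at -1.64, -1.89 and -3.38 and the premiR-197 arrays at -1.95, -1.80 and -3.16.

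The differences that came closest to a call were those of HERC5 and MX1. HERC5, the ligase that attaches ISG15, was at -0.75, -0.34 and 1.40 after LNA-miR-197 and at -1.39, -0.70 and 1.02 after LNA-miR-NC, higher in each line (0.46 ± 0.12 in the mean, adjusted p = 0.0618). MX1 was at -3.19, -5.78 and -6.22 after LNA-miR-197 and at -2.39, -5.27 and -3.59 after LNA-miR-NC, lower in each line and below background on the LNA-miR-197 array of PC14CDDP, with -1.31 ± 0.41 in the mean and an adjusted p of 0.0862. Members below 0 in each of the 3 lines numbered 7 (HERC6, IFI27, IRF9, MX1, OAS2, OAS3 and SP110), where 24.4% of all genes were. Those above 0 in each line numbered 2 (HERC5 and IRF1), where 23.4% of all genes were.

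In A549 the LNA-miR-197 array stood apart for IFIT1, IFIT2, IFIT3 and OASL. IFIT1 was at 0.21 on that array and at -1.87 to -0.87 on the other A549 arrays. IFIT2 was at -0.63 against -2.93 to -2.23, and its further probe was at -3.19 against -5.25 on the LNA-miR-NC array. IFIT3 was at -1.55 against -3.72 to -3.28. OASL, a relative of the OAS enzymes that strengthens RNA sensing, was at -1.09 against -4.29 to -3.42. All of these were higher than on every other array of the line, by 1.12, 1.86, 1.75 and 2.35 over LNA-miR-NC. The other members of the IFIT and OAS families differed less or were lower. IFIT5, OAS1, OAS2 and OAS3 were at 1.03, -0.63, -4.13 and -0.14 on that array. On the LNA-miR-NC array of A549 they were at 0.83, -0.67, -3.56 and -0.13.

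ISG15 and IRF1, a transcription factor that interferons induce, were also highest on that array of A549, at 1.97 and -1.51, or 0.83 and 0.70 above LNA-miR-NC. The same comparison in PC14 gave -0.85 for IFIT1, -0.32 for IFIT2, 0.01 for IFIT3, -0.15 for OASL and -0.08 for ISG15. In PC14CDDP it gave -0.70, 0.33, -0.42, -0.68 and 0.01. IRF1 was also higher there, by 0.22 in PC14 and 0.17 in PC14CDDP. The high values of IFIT1, IFIT3, OASL and ISG15 were thus seen on 1 array of 1 line, and that of IFIT2 was much larger on it. Whether they belong to the transfection or to that culture cannot be told apart, and the difference between the lines was not tested.

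The count of members at least 2-fold higher after LNA-miR-197 was 4 of 35 in A549 (IFIT1, IFIT2, IFIT3 and OASL), where 2.46% of all genes were. It was 0 in PC14 (3.04% of all genes) and 0 in PC14CDDP (6.6% of all genes). At least 2-fold lower were 1 in A549 (IFI27, 5.08% of all genes), 0 in PC14 (2.23% of all genes) and 4 in PC14CDDP (HERC6, IFI27, MX1 and PARP9, 6.92% of all genes), where HERC6 and MX1 were below background after LNA-miR-197. The members had medians of 0.11 (A549), -0.24 (PC14) and -0.42 (PC14CDDP), and all genes had 0.01, -0.03 and 0.00. STING1, the adaptor of cytosolic DNA sensing, was at 0.50 on the same A549 array and at -2.70 to -2.37 on the other A549 arrays. The RNA sensor IFIH1 was at -1.82 there against -2.72 on the LNA-miR-NC array, and TLR3, the sensor of double-stranded RNA in endosomes, at -3.46 against -5.37. RIGI was at -2.51 against -2.56, and DHX58 was lower, at -1.14 against 0.23. Of the 13 sensors and partners tested, 10 were above their LNA-miR-NC value on this array and 3 below. Of all genes, 49.4% were below theirs. The part of the sensors in the high values was not tested.

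**Figure D3:**
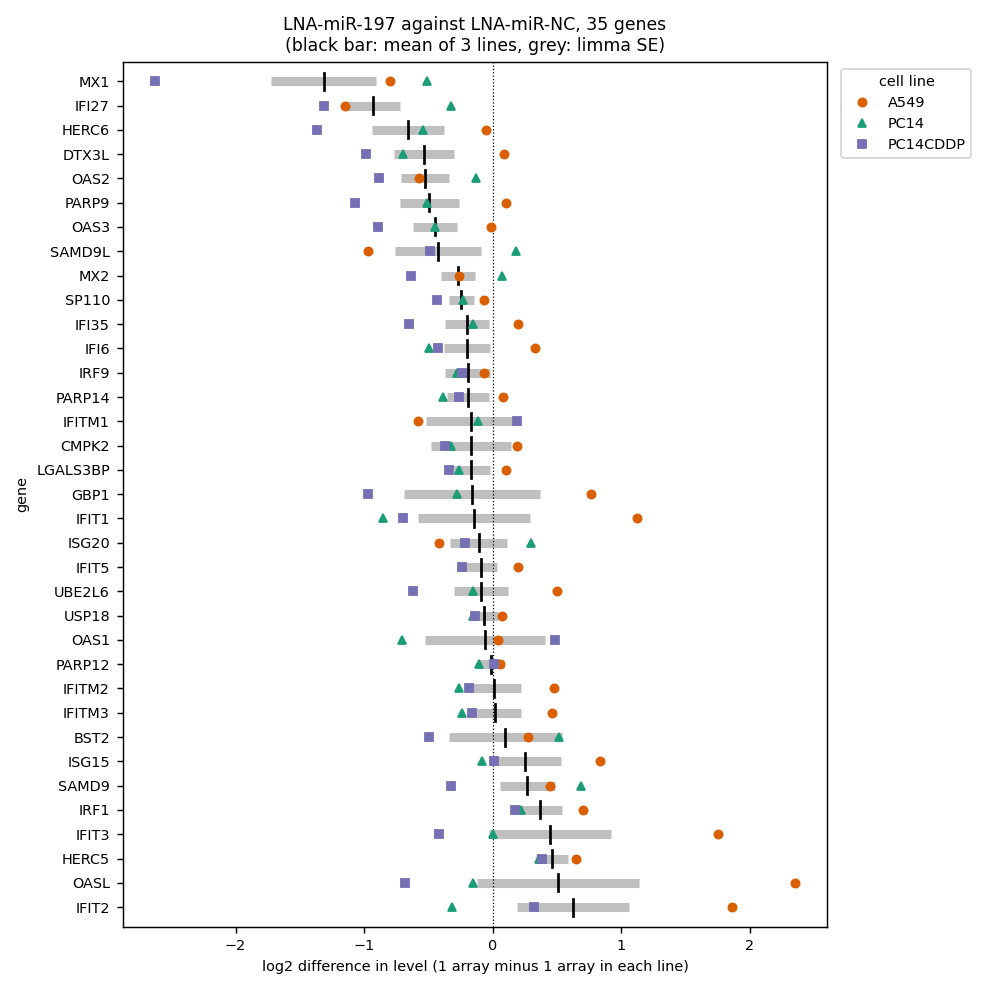
Difference in log2 level between LNA-miR-197 and LNA-miR-NC for the 35 members tested, as 1 point for each line, with a black bar for the mean and a grey line for its SE from limma. The A549 points of OASL, IFIT2, IFIT3 and IFIT1 lie between 1.12 and 2.35, apart from the other lines, and IFI27 lies below 0 in every line.

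The control oligonucleotides were compared with each other to see how far the choice of control moves these genes. This comparison shares the AllStar-NC arrays with that of premiR-197 and the LNA-miR-NC arrays with that of LNA-miR-197. limma called 0 members lower and 0 higher, against 0.201% and 0.495% of all genes, and 2 members had an unadjusted p under 0.05, where 13.8% of all genes had one. These were IFI27, higher after LNA-miR-NC by 0.67 ± 0.21 (0.56, 0.24 and 1.21 by line, adjusted p = 0.203), and IFI35, at -0.51 ± 0.17 (-0.52, -0.51 and -0.51 by line, adjusted p = 0.246).

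IFI35, which forms cytoplasmic complexes after interferon treatment, was at -0.13, 0.42 and 1.02 after LNA-miR-NC and at 0.39, 0.93 and 1.53 after AllStar-NC. It was lower in every line by nearly the same amount. IFIT2 was at -2.49, -4.04 and -3.68 after LNA-miR-NC, and its mean difference of -0.43 had an adjusted p of 0.728. IFIT3 was at -3.30, -4.98 and -4.18 (-0.34, adjusted p = 0.810) and OAS3 at -0.13, -1.05 and -0.58 (-0.35, adjusted p = 0.430). The 95% interval of the difference reached from -1.43 to 0.58 for IFIT2.

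The median over the members was -0.07, against -0.04 over all genes. By line it was -0.03 in A549, -0.19 in PC14 (30 of 35 members below 0) and -0.03 in PC14CDDP, with -0.04, -0.02 and -0.05 over all genes. In each of the 3 lines 12 members were lower after LNA-miR-NC than after AllStar-NC, against 26.9% of all genes. These were DTX3L, IFI35, IFI6, IFIT1, IFIT2, IFIT3, LGALS3BP, OAS3, PARP14, PARP9, UBE2L6 and USP18. HERC5, IFI27 and IFIT5 (3 members) were higher in each line, against 17.4% of all genes.

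When both LNA oligonucleotides were set against premiR-197 and AllStar-NC, limma called 1 of 35 members lower and 1 higher, where 6.22% and 4.48% of all genes were called. Here 6 arrays stand on each side. OAS3, an enzyme of the oligoadenylate family with probe position chr12:113410131-113410190 of hg19, was at -0.14, -1.50 and -1.48 after LNA-miR-197 and at -0.13, -1.05 and -0.58 after LNA-miR-NC. It was at 0.35, -0.78 and -0.65 after premiR-197 and at 0.16, -0.59 and -0.29 after AllStar-NC. The mean of the LNA arrays was lower in each line, although in PC14CDDP LNA-miR-NC lay above premiR-197, with a mean difference of -0.51 ± 0.12 (1.43-fold lower, adjusted p = 0.0382), and the further probe gave -0.65.

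PARP12, with its probe at chr7:139723946-139724005 of hg19, was at 0.02, -0.81 and 0.09 after LNA-miR-197, -0.04, -0.70 and 0.08 after LNA-miR-NC, -0.46, -1.25 and -0.63 after premiR-197 and 0.02, -0.75 and -0.18 after AllStar-NC. The higher mean on the LNA arrays, 0.32 ± 0.07 (1.24-fold, adjusted p = 0.0325), stood beside premiR-197 arrays that were the lowest of each line, and LNA-miR-NC and AllStar-NC differed by 0.08 in the mean. ISG20 came next, with 0.59 and an adjusted p just above the threshold, which was not a call. The median over the members was 0.05, against -0.05 over all genes. Both calls ended on leaving out any line, with adjusted p values of 0.0683 to 0.281 for OAS3 and 0.100 to 0.229 for PARP12.

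Whether this difference varied between the lines was tested as an interaction. In this fit the miR-197 oligonucleotide and its control counted as a pair of samples of the same kind in each line. Any effect of miR-197 itself therefore went into the spread, so a lack of calls does not show that the lines were alike. limma called 0 members between PC14CDDP and PC14 (0% of all genes), 0 between PC14CDDP and A549 (0.00805% of all genes) and 0 between A549 and PC14 (0% of all genes). At an unadjusted p under 0.05 there were 1, 2 and 0 members, against 2.21%, 4.15% and 3.28% of all genes. These were IFITM1, whose difference was larger in PC14CDDP by 1.44 than in PC14 and by 1.25 than in A549, and OAS1, whose difference in PC14CDDP minus that in A549 was -1.60 with signals below background in PC14CDDP. The adjusted p of IFITM1 against PC14 was 1.00.

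Differences between the lines were called for more members than differences between transfections. PC14CDDP was compared with PC14 to describe the resistant line beside its parental line, over all 4 transfections. Of the 35 members, 11 were lower and 10 higher in PC14CDDP, where 23.3% and 25.1% of all genes were called. The median over the members was 0.23, against 0.04 over all genes. IFITM2, PARP9, IFIT1, IRF9 and IFIT5 were the members that fell most, and SAMD9L, GBP1, SAMD9, HERC5 and OASL those that rose most. The values of a line are listed in the order premiR-197, AllStar-NC, LNA-miR-197 and LNA-miR-NC.

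Within the IFIT family 2 of 4 members were lower and none was higher in PC14CDDP. IFIT5 was at -1.26, -0.92, -1.13 and -0.89 in PC14CDDP and at 0.21, 0.17, 0.06 and 0.30 in PC14, 2.35-fold lower without overlap (log2 -1.23 ± 0.11, adjusted p = 4.69e-05). IFIT1 was at -2.84, -1.06, -2.23 and -1.53 in PC14CDDP and at -1.0, 0.23, -1.07 and -0.21 in PC14. It was lower in PC14CDDP in every transfection, but the groups overlapped, and the mean difference was -1.40 ± 0.38 (2.64-fold, adjusted p = 0.0156). Without the premiR-197 arrays or without the LNA-miR-NC arrays this call was lost (adjusted p = 0.0864 and 0.0611).

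Of the 4 membrane restriction factors, 3 were lower in PC14CDDP. IFITM2 was at 4.0, 4.13, 3.99 and 4.17 in PC14CDDP and at 5.63, 5.73, 5.40 and 5.66 in PC14, 2.90-fold lower with no overlap (log2 -1.53 ± 0.18, adjusted p = 2.17e-04). IFITM3 (log2 -0.78, adjusted p = 0.00596) and IFITM1 (log2 -0.92, adjusted p = 0.0367) were lower as well. IFITM2 and IFITM3 are near-identical neighbours on chromosome 11, and a probe may bind the transcripts of both, so their values are uncertain as separate measurements. BST2 did not pass the test.

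IRF9, the DNA-binding partner of STAT2, was at -0.97, -1.02, -0.84 and -0.60 in PC14CDDP and at 0.16, 0.66, 0.30 and 0.57 in PC14. The arrays did not overlap, and the level was 2.43-fold lower in PC14CDDP (log2 -1.28 ± 0.15, adjusted p = 2.39e-04). PARP9 was at -3.82, -2.42, -3.70 and -2.63 in PC14CDDP and at -1.98, -1.03, -2.04 and -1.53 in PC14, again without overlap and 2.83-fold lower (log2 -1.50 ± 0.20, adjusted p = 3.87e-04), while its further probe gave a smaller difference of -0.53. PARP14 (-0.79), DTX3L (-0.67), UBE2L6 (-0.83) and IFI27 (-1.22) were the other called decreases.

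SAMD9 and SAMD9L, neighbouring genes on chromosome 7 whose products restrict poxviruses, were well above background on every PC14CDDP array and on none of PC14. SAMD9L had the largest difference of the list, at -1.38, -1.22, -1.94 and -1.45 in PC14CDDP, against signals of -8.18, -6.77, -8.39 and -8.57 in PC14. This was at least 27.3-fold higher in PC14CDDP, with measured means of -1.50 and -7.98 (adjusted p = 1.60e-06). A bound of this kind sets the bright mean against, on each dim array, the lowest signal that counted as well above background or the probe's own signal where that was higher. It holds for the main processing only. Under the alternatives the log2 difference of SAMD9L reached down to 2.42, which is below the bound. SAMD9 was at -5.53, -5.15, -5.25 and -4.92 in PC14CDDP and at -8.01, -8.33, -7.78 and -8.47 in PC14, at least 2.08-fold higher (means -5.21 and -8.15, adjusted p = 8.61e-06).

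GBP1 was at -5.90, -4.06, -5.00 and -4.03 in PC14CDDP, well above background on 3 of 4 arrays there, and below background on every PC14 array at -8.42, -8.41, -8.85 and -8.57. It was at least 2.86-fold higher (means -4.75 and -8.56, adjusted p = 2.53e-04). HERC5 was at 1.35, 0.83, 1.40 and 1.02 in PC14CDDP and at -0.77, -0.80, -0.34 and -0.70 in PC14, 3.49-fold higher without overlap (log2 1.80 ± 0.11, adjusted p = 7.24e-06). OASL was at -3.86, -3.69, -4.06 and -3.39 in PC14CDDP and at -5.61, -5.09, -5.38 and -5.22 in PC14, also without overlap, with 1.57 ± 0.55 in the mean (2.98-fold, adjusted p = 0.0428). Leaving out the premiR-197, AllStar-NC or LNA-miR-NC arrays ended the call of OASL (adjusted p = 0.149, 0.0689 and 0.141), as did normexp background correction, where the difference was 0.55.

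The smaller called increases were those of SP110 (1.00), a nuclear body protein, CMPK2 (0.86), a mitochondrial nucleotide kinase, PARP12 (0.72), IFI6 (0.66) and IFI35 (0.47). ISG15 was higher by 0.56 and did not pass (adjusted p = 0.0891). The steps of ISG15 conjugation thus differed in direction, with UBE2L6, its conjugating enzyme, lower and HERC5, its ligase, higher.

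**Figure D4:**
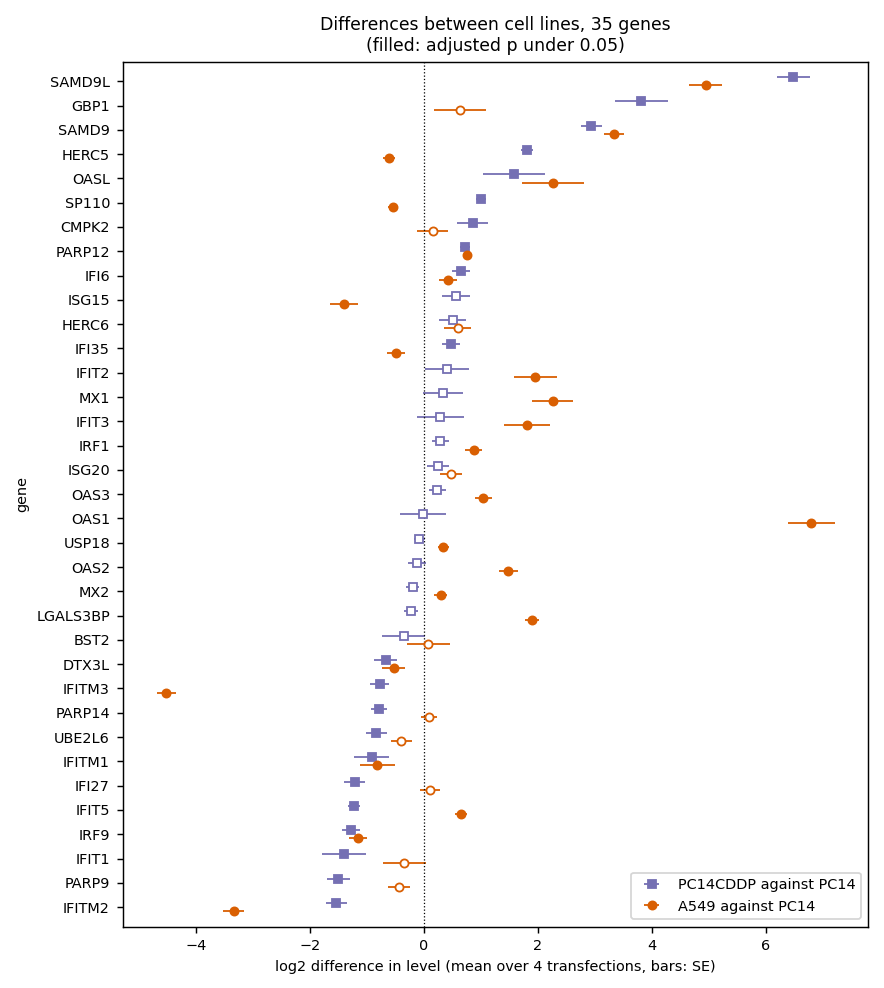
Log2 difference of each of the 35 members between PC14CDDP and PC14 and between A549 and PC14 over 4 arrays a line, with bars for the SE from limma and filled points where the adjusted p was under 0.05. SAMD9L, SAMD9 and GBP1 in PC14CDDP and OAS1, SAMD9L and SAMD9 in A549 are differences from signals below background in PC14, and IFITM3 and IFITM2 lie furthest below 0 in A549.

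A549 was compared with PC14 over the same 4 transfections. Of the 35 members, 9 were lower in A549 and 16 higher, where 32.4% and 35.8% of all genes were called, with a median of 0.34 over the members and 0.08 over all genes. All 4 OAS genes and 3 of 4 IFIT genes were higher in A549, and 3 of 4 membrane restriction factors were lower. Slide and line cannot be told apart in this comparison. The PC14 arrays also serve as the reference for PC14CDDP above.

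OAS1 was at -1.08, -1.35, -0.63 and -0.67 in A549, against signals below background of -8.10, -6.62, -8.45 and -7.74 in PC14. It was at least 40.4-fold higher in A549 (measured means -0.93 and -7.73, adjusted p = 2.08e-06). OASL was at -3.42, -4.29, -1.09 and -3.45 in A549, above all the PC14 values, and 4.79-fold higher (log2 2.26 ± 0.55, adjusted p = 0.00600). OAS2 and OAS3 were higher by 1.48 and 1.04 on the log2 scale. MX1 was at -3.70, -3.22, -3.19 and -2.39 in A549 and at -5.86, -4.61, -5.78 and -5.27 in PC14, 4.77-fold higher without overlap (log2 2.25 ± 0.35, adjusted p = 5.80e-04).

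SAMD9L was at -3.44, -2.68, -3.49 and -2.52 and SAMD9 at -5.10, -4.68, -4.51 and -4.96 in A549, at least 9.41-fold and 2.74-fold higher than in PC14 (A549 means -3.03 and -4.81, PC14 means -7.98 and -8.15, adjusted p = 1.89e-06 and 1.34e-06). PC14 was thus the only line in which both neighbours were below background. IFIT2 (1.95), IFIT3 (1.80) and IFIT5 (0.65) were higher in A549, and the high LNA-miR-197 array enters the means of IFIT2 and IFIT3. LGALS3BP, a secreted glycoprotein, was higher by 1.90 and IRF1 by 0.87. The remaining increases were PARP12 (0.76), IFI6 (0.41), USP18 (0.34) and MX2 (0.30).

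IFITM3 was at 0.76, 1.17, 1.68 and 1.22 in A549 and at 5.79, 5.84, 5.52 and 5.76 in PC14, 22.9-fold lower with no overlap (log2 -4.52 ± 0.17, adjusted p = 1.79e-07). IFITM2 was at 1.75, 2.27, 2.77 and 2.29 in A549, 10.1-fold lower than in PC14 (log2 -3.34 ± 0.18, adjusted p = 1.19e-06). IFITM1 was at -4.33, -3.94, -4.05 and -3.47 in A549 and at -3.65, -2.79, -3.10 and -2.98 in PC14, and its groups overlapped (log2 -0.82 ± 0.30, adjusted p = 0.0410). The call of IFITM1 was lost without the premiR-197, AllStar-NC or LNA-miR-NC arrays (adjusted p = 0.0716, 0.110 and 0.0722).

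ISG15 was at 0.16, 0.53, 1.97 and 1.14 in A549 and at 1.90, 2.57, 2.42 and 2.5 in PC14, 2.64-fold lower (log2 -1.40 ± 0.24, adjusted p = 0.00101), and only the LNA-miR-197 array of A549 reached the range of PC14. IRF9 was at -1.31, -0.82, -0.44 and -0.37 in A549, below every PC14 value and 2.24-fold lower (log2 -1.16 ± 0.15, adjusted p = 2.05e-04). HERC5 (-0.62), SP110 (-0.55), DTX3L (-0.53) and IFI35 (-0.49) were the other called decreases.

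Between A549 and PC14CDDP, a comparison that shares its arrays with both of the above, 9 members were lower in A549 and 15 higher, where 33.9% and 36.4% of all genes were called. HERC5 was 5.35-fold lower in A549 (log2 -2.42) and ISG15 3.90-fold lower (log2 -1.96), both without overlap. The other called decreases included IFITM3 (-3.74), IFITM2 (-1.80), SP110 (-1.55) and SAMD9L (-1.54). All 4 IFIT genes were higher in A549, by 1.06 for IFIT1, 1.55 for IFIT2, 1.52 for IFIT3 and 1.88 for IFIT5. The high LNA-miR-197 array of A549 enters the means of IFIT1, IFIT2 and IFIT3. The groups of IFIT1 overlapped, at -1.87 to 0.21 in A549 and -2.84 to -1.06 in PC14CDDP. OAS1 was at least 30.3-fold higher (measured means -0.93 and -7.75, adjusted p = 1.65e-06). LGALS3BP was higher by 2.12 and IFI27 by 1.32.

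The genes that make, receive and pass on the interferon signal were counted from fixed lists. After premiR-197, after LNA-miR-197 and between the controls, limma called 0 of the 6 receptors, 0 of the 8 JAK-STAT genes and 0 of the 13 sensors and partners tested. At an unadjusted p under 0.05 there were 0, 2 and 3 genes of these lists after premiR-197, 2, 2 and 2 after LNA-miR-197, and 0, 0 and 1 between the controls. The shares of all genes in these comparisons were 16.3%, 27.3% and 13.8%. When LNA oligonucleotides were set against premiR-197 and AllStar-NC, JAK1 was lower (-0.31, adjusted p = 0.0441) and DHX58, an RNA helicase of the sensing pathway, higher (2.13, adjusted p = 0.0204). DHX58 was at -1.14, -0.76 and -0.25 after LNA-miR-197, 0.23, -0.29 and 0.73 after LNA-miR-NC, -3.32, -1.34 and -3.16 after premiR-197 and -2.61, -1.08 and -2.72 after AllStar-NC. It was highest after LNA-miR-NC in every line. Of the 17 interferon ligands on the arrays, 3 were above background often enough to be tested, and IFNE was measured in A549 at -2.81 to -0.85 and nowhere above -6.97 in the other lines.

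In PC14CDDP 4 of 6 receptor genes were lower than in PC14, with log2 differences of -0.76 for IFNAR1, -0.79 for IFNAR2, -0.81 for IFNGR2 and -1.31 for IFNLR1. Of all genes, 23.3% were called lower and 25.1% higher in this comparison. Of the 8 JAK-STAT genes, 5 were higher and 1 was lower. STAT2 was among them (0.57), and the feedback inhibitors SOCS1 and SOCS3 were higher by 2.5 and 0.87. The RNA sensors TLR3 and IFIH1 were higher by 1.99 and 1.52, and the adaptor MAVS (-0.97) and the sensor RIGI (-0.80) were lower. In A549 4 of the JAK-STAT genes were higher than in PC14 and 3 lower, with JAK1 at 1.53 and TYK2 at -1.32. Of the sensors and partners 5 were higher and 5 lower, with IFIH1 at 1.04 and IRF7, the factor that amplifies interferon production, at -2.38. Between A549 and PC14, 35.8% of all genes were called higher and 32.4% lower.

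Where a gene had several probes, the further probes did not always agree on its difference after premiR-197. The 3 probes of OAS2 gave -0.52, 0.25 and 0.65, those of BST2 gave 0.36 and -0.18, and those of MX2 gave 0.16 and -0.26. Both probes of HERC6 lay below 0, at -0.14 and -0.59. The further probe of SAMD9L was at -3.42 to -3.19 in PC14CDDP and at -5.77 to -5.15 in A549, and was not well above background on any PC14 array. The values of OAS2, BST2 and MX2 after transfection thus depend on the probe.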

How the data were processed

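RNA of the 12 transfected cultures was measured on 1-colour 60-mer arrays. The authors read them with Agilent Feature Extraction 10.7.3.1, per the labels, and deposited for each spot the intensity (mean signal, local background, and a processed signal from which the software took background and spatial trend, array by array, without scaling across arrays) with the scanner software's flags. The deposited value table repeats this processed intensity (0 of 755712 values differ). A normalization for these arrays is not given in the sources used here, and 0 columns belonged to other samples.

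Control spots and 224 to 375 outlier spots per array were left out, spots of a probe were averaged, and the log2 of each array's 75th percentile (613 to 719 units) was subtracted from the log2 processed signal. Probes with a missing value (106) were left out, a probe was kept when well above background on at least 3 of 12 arrays (33714), and the brightest probe stood for its gene (24857 genes). Names came from RefSeq (GRCh38.p14) through the probe's accession (28174 of 50599 probes, 55.7%), and the file's name was kept otherwise. Probe positions follow the files (hg19).

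All arrays entered a limma fit (limma 3.58.1, R 4.3.3) with transfection and cell line as terms, or with each line and kind of oligonucleotide for the interactions, and p-values were adjusted by Benjamini-Hochberg over all genes, with an adjusted p under 0.05 as a call. limma was tested on simulated data beforehand. Intervals are at 95%. The line is the replicate and pairs the transfections, since arrays of the same line deviated together (r from 0.848 to 0.948 over genes). The labels name no independent cultures, so p-values measure the spread between these samples, and the number of arrays limits the precision. The 4 arrays of a line are cultures of 1 line.

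All 41 members are named. Values on every array are given for members called between transfections (where none was, for the 5 largest mean differences in the same direction in all 3 lines, well above background on at least 9 of 12 arrays), and for the 5 largest called increases and 5 largest called decreases between lines. ISG20, HERC5, MX1 after LNA-miR-197, the A549 values after LNA-miR-197 and the sensors beside them were chosen after their values were seen. The members and lists were chosen with earlier results of these data known. Alternatives tried were normexp background correction (offset 50), quantile normalization, the deposited table, no filter or a filter on all 12 arrays for dim probes, the mean of a gene's probes, only the arrays of the comparison, the methods' t-test, a robust prior with trend, no block or the slide as block, no transfection term, and leaving out each line or transfection. Files were read and plots drawn in Python 3.11.15 (pandas 2.3.3, numpy 2.4.6, matplotlib 3.10.9). The other experiments of the study were not analysed here. Some genes are not reported here.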

Additional observations from a re-analysis of the deposited data

Results flagged for a closer look

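Among the 105 sets of 4 arrays (35 members in 3 lines), 4 held an array that stood apart from the other arrays of its line by more than Dixon's limit, where chance gives about 1 in 20. The arrays of a line carry different transfections. IFIT3 on the AllStar-NC array of PC14 was at -4.21, with the others at -4.98 to -4.92 (the gap took 0.922 of the range). ISG15 on the premiR-197 array of PC14CDDP was at 2.38, with the others at 3.08 to 3.11 (0.958). PARP12 on the premiR-197 array of A549 was at -0.46, with the others at -0.04 to 0.02 (0.873). IRF1 on the LNA-miR-197 array of A549 was at -1.51, with the others at -2.29 to -2.18 (0.854).

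Some members moved in opposite directions in different lines, by at least 1.5-fold each way. Each line has 1 array per transfection, so these differences between lines were not tested. After premiR-197 BST2 differed by -0.80 in PC14 and by 1.80 in PC14CDDP, which are 2.60 apart, with 1 of the arrays below background in either pair. After LNA-miR-197 IFIT1 differed by 1.12 in A549 and by -0.85 in PC14, which are 1.97 apart. OASL differed by 2.35 in A549 and by -0.68 in PC14CDDP, which are 3.03 apart. Between the controls, MX1 was lower after LNA-miR-NC by 0.67 in PC14 and higher by 1.04 in PC14CDDP, which are 1.71 apart.

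Of the members that were not tested, IFI44 was 2.63 higher on the log2 scale on the LNA-miR-197 array of A549 than on its LNA-miR-NC array (-4.80 against -7.43), and XAF1 was 2.60 higher (-5.52 against -8.13). XAF1 was at -5.49 on the AllStar-NC array of that line. The LNA-miR-NC signals of both were below background.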

How the results depend on the processing

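Directions were compared for the genes picked by the rule for values on every array, each in the comparison that picked it. No alternative turned any of these directions. Of their values under alternatives, 412 kept the side of the threshold, 37 lost the call and 3 gained one. The direction of the other members was not compared in this way. The probes of OAS2, BST2 and MX2 differed in direction after premiR-197, as given above. After premiR-197 the count of lower members was 0, and 3 with normexp (PARP9, PARP12 and SP110), 2 with the filter on all 12 arrays and 2 with the trend and robust prior (PARP9 and PARP12 in both). After LNA-miR-197 the 1 lower member became 0 with no filter, with only the arrays of the comparison, by the methods' t-test, with no replicate block and with the slide as block, and the 0 higher members became 1 (HERC5) with normexp, the filter on all arrays and the trend prior. For the LNA oligonucleotides against premiR-197 and AllStar-NC, the 1 lower and 1 higher member became 0 and 0 under 4 alternatives. These were no filter, the t-test, no replicate block and the slide as block. The higher ones became 2 (PARP12 and ISG20) with normexp, the filter on all arrays and the trend prior. By the t-test, 7 members in place of 11 were lower in PC14CDDP than in PC14, and 9 in place of 15 higher in A549 than in PC14CDDP. Without the pairing by line (no replicate block), the adjusted p of IFI27 was 1.00. In the leave-one-out fits the counts of called members ranged from 0 to 0 for every comparison of transfections, from 8 to 11 lower and 7 to 11 higher for PC14CDDP against PC14, from 6 to 12 lower and 14 to 15 higher for A549 against PC14, and from 8 to 10 lower and 15 to 16 higher for A549 against PC14CDDP. The fit with only the arrays of the comparison was not run for LNA against premiR-197 and AllStar-NC, which already uses all 12. With no filter, the median of all genes was 0.14 for PC14CDDP against PC14 and 0.13 for A549 against PC14. The cause of these changes was not tested, beyond the smaller number of arrays. Signal limits OAS1, SAMD9, SAMD9L, GBP1 and BST2, which were below background on 7 or more arrays, or on 4 for the SAMD9 genes. Under the alternatives the log2 difference between PC14CDDP and PC14 reached down to 0.47 for SAMD9 and 0.65 for GBP1. Between A549 and PC14 it reached down to 2.94 for OAS1, 1.35 for SAMD9L and 0.58 for SAMD9. Each of these lies below the bound given above for that gene and comparison.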
